A study of Rattus norvegicus with 458 samples.

Results

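The liver of the untreated Sprague Dawley rat was set against the other organs of the same animals, across all miRNA names that the sequencing tables list and not only miR-122. The liver was represented by 10 of the 215 small RNA libraries of the series, 1 for each of 5 male rats (rats 2 to 6) and 5 female rats (rats 7 to 11) of 12 to 13 weeks. The comparison group was 185 libraries of 21 other tissue labels: adrenal, brainstem, cerebellum, cerebrum, hippocampus, heart, duodenum, jejunum, ileum, whole kidney, kidney cortex, kidney medulla, pancreas, glandular and non-glandular stomach, biceps femoris, soleus, testis, ovary, uterus and whole blood. The 10 libraries of the dorsal root ganglion were not used, and 10 further libraries were left out because their profiles were those of another organ (4 of the duodenum, 3 of the hippocampus and 1 each of the adrenal, the ovary and the uterus). None of these 10 resembled liver: their correlation with the liver libraries lay between 0.512 and 0.858, and their miR-122-5p level was at most 4.40 CPM (counts of a name for every 1000000 counts of the library). Each library is bulk tissue of 1 rat, from a part of the organ for several labels, so a change in the share of a cell type and a change in its RNA content cannot be told apart, and each rat contributes its liver and its other tissues.

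miRNAs are short RNAs that guide an Argonaute protein to messenger RNAs, mainly by pairing of the seed, bases 2 to 8 from the 5′ end, and they lower the stability or translation of those targets. Each hairpin precursor gives a 5p and a 3p arm, of which 1 is usually kept. Most of the liver's mass is hepatocytes, with sinusoidal endothelial cells, resident macrophages (Kupffer cells), stellate cells and bile duct epithelium between them. miR-122 is the classical hepatocyte miRNA, and miR-192, miR-194 and miR-802 are other miRNAs known from liver, gut or kidney epithelium and linked to hepatocyte nuclear factors.

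The liver libraries held between 2803541 and 5570031 counts, and all libraries used between 376401 (testis) and 17725805, with a median of 4859133. The 3 most counted names made up 50.01% of all liver counts, 10 names 76.1% and 23 names 90%. RNA integrity numbers of the livers were 7.4 to 8.4, and the RNA of 5 livers (rats 6, 7, 8, 10 and 11) came from re-extracted homogenate. The paper reports the lowest integrity numbers for the pancreas, and their effect on the comparisons with pancreas below was not tested. The median correlation of a liver with the other livers was 0.960 to 0.978, and that with its most similar other tissue, a kidney label in each, 0.866 to 0.897. Of the liver marker, miR-122-5p lay between 25926 and 40363 CPM in the 10 livers and at or under 66.5 CPM in each of the 185 other libraries, and miR-122-3p between 928 and 1937 CPM against at most 6.04 CPM, with no miR-122-3p count in 122 of the 185.

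The mature sequences of the names on which the liver profile turns are given with the seed in capitals, since names that share a seed share predicted targets. They come from RefSeq (build GRCr8), in which 53 of the 72 names reported here had an entry, and for the miR-802 arms the most counted sequence in the deposited livers is shown, in DNA letters. The first set holds names that were higher in liver than in nearly every other tissue, with miR-101a and miR-215 beside miR-101b and miR-192 because each pair has the same seed and differs outside it.
miR-802-5p: tCAGTAACaaagattcatccttg
miR-802-3p: aCGGAGAGtctttgtcactcag
miR-192-5p: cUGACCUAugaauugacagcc
miR-215: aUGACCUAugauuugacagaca
miR-194-5p: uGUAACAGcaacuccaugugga
miR-101b-3p: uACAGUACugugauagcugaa
miR-101a-3p: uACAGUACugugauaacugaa
miR-31a-5p: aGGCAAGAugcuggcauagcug
miR-193-3p: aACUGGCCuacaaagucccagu
miR-365-3p: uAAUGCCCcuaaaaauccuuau
miR-3559-5p: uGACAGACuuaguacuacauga
Several of these lie side by side in the genome. miR-194-5p (chr1:212994038-212994059, plus strand) and miR-192-5p (chr1:212994232-212994252, plus strand) share a locus, and a further copy of miR-194 lies beside miR-215 within Iars2 on chromosome 13 (chr13:99383003-99383024 for miR-215). miR-193-3p (chr10:65170370-65170391, plus strand) and miR-365-3p (chr10:65184271-65184292, plus strand) both lie within the annotated gene Faul2. miR-101b-3p lies within Rcl1 (chr1:236273982-236274002, plus strand), miR-3559-5p within Zdhhc15 (chrX:73660193-73660214, minus strand) and miR-31a-5p within a long non-coding RNA (chr5:108714906-108714927, minus strand).

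The next set holds names with high liver counts, and miR-26b-5p for the seed it shares with miR-26a-5p, shown because the seed families below are counted from them. Of this set, miR-21-5p had its highest mean in liver, and for miR-26b-5p every liver was above every other library.
miR-22-3p: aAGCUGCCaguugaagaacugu
miR-26a-5p: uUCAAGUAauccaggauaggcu
miR-26b-5p: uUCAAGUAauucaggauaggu
miR-21-5p: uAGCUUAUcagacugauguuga
miR-148a-3p: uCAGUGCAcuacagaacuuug
The last set holds names that were low or missing in liver and high elsewhere.
miR-149-5p: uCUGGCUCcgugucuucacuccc
miR-541-5p: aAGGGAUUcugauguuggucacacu
miR-382-5p: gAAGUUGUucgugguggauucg
miR-134-5p: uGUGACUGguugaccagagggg
miR-758-3p: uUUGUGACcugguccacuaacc
miR-202-5p: uUCCUAUGcauauacuucu
miR-137-3p: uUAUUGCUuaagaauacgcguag
miR-216a-3p: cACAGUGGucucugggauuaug
Of these, miR-758-3p (chr6:134547289-134547310), miR-382-5p (chr6:134569956-134569977), miR-134-5p (chr6:134570320-134570341) and miR-541-5p (chr6:134578434-134578458) lie on the plus strand of the imprinted Dlk1-Dio3 region on chromosome 6. miR-149-5p lies within Gpc1 on chromosome 9.

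Against the mean of the 21 other tissues, 413 of 1309 names tested were higher in liver (31.6%) and 177 were lower (13.5%; edgeR, upper quartile scaling, adjusted p below 0.05). The division of the calls depended on the scaling. With TMM scaling 264 names were higher and 263 lower, and with DESeq2 294 were higher and 350 lower, so that the share of calls that were higher was 70.0%, 50.1% and 45.7% in the 3 analyses. The median log2 fold change of all names was -0.0019 with upper quartile scaling, -0.51 with TMM and -0.36 with DESeq2. Called in all 3 analyses were 233 names as higher (17.8%) and 177 as lower (13.5%), and log2 fold changes below are those of upper quartile scaling unless another is named. In these fits the mean of the others is a mean of log2 levels over the 21 tissues after scaling. A log2 difference is therefore not the ratio of mean CPM values. For miR-802-5p, with a log2 difference of 9.20, mean CPM was 1064 in liver and 41.0 over the other tissues. Of the 413 higher names 250 were single mature names, 125 were predicted miRNAs, and the others were composite names or precursor entries.

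**Figure D1:**
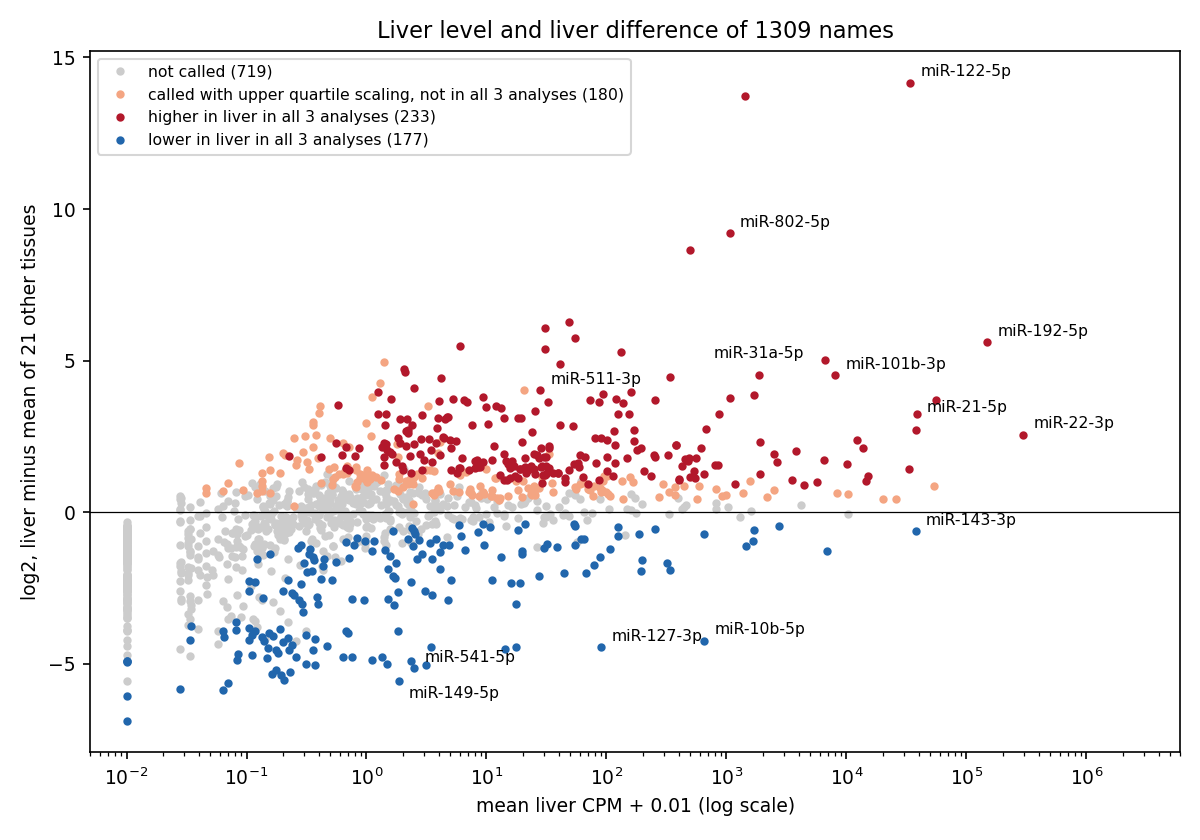
Mean liver level (CPM + 0.01, log axis) against the log2 difference of liver from the mean of 21 other tissues, 1 point per name for 1309 names. Red points are the 233 names higher and blue points the 177 names lower in all 3 analyses, and names such as miR-22-3p and miR-21-5p combine a high level with a difference far below that of miR-122-5p and miR-802-5p.

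Beyond miR-122, the largest differences were those of both arms of miR-802, a miRNA linked to glucose metabolism in the liver. miR-802-5p lay between 761 and 1386 CPM in the livers, with a median of 1055, and the highest of the 185 other libraries reached 362 CPM. Its log2 difference from the mean of the others was 9.20 ± 0.17 (SE, adjusted p = 3.29e-109, edgeR). The liver values did not overlap with those of any other tissue, of which the pancreas was highest (255 ± 54.2 CPM, SD, n = 10). miR-802-3p lay between 286 and 734 CPM, with a median of 516, and at or under 139.5 CPM in every other library. Its log2 difference was 8.64 ± 0.18 (adjusted p = 5.53e-101, edgeR), and its highest other tissue was the ileum (107 ± 17.5 CPM, SD, n = 10). Both arms were higher in liver than in each of the 21 tissues with upper quartile and with TMM scaling, the smallest log2 difference being 1.97 ± 0.35 for the 5p arm and 1.67 ± 0.36 for the 3p arm, both against the ileum.

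miR-101b-3p, whose family is known to target the chromatin modifier Ezh2, had the highest level after miR-122-5p among the names that were higher in liver than in each other tissue under both scalings. It lay between 6846 and 9367 CPM in the livers, with a median of 7768 and a mean of 8059 ± 801 CPM (SD, n = 10). No other library exceeded 2633 CPM, and the testis had the highest mean of the others, 1985 ± 401 CPM (SD, n = 5). The log2 difference of miR-101b-3p from the mean of the others was 4.52 ± 0.07 (adjusted p = 6.17e-119, edgeR), and from the nearest tissue in the fit, the adrenal, 3.26 ± 0.18. Its passenger arm miR-101b-5p was scarce, 0.680 to 3.12 CPM in the livers, and still higher than in each of the 21 tissues (log2 difference 4.62 ± 0.34 from the mean of the others). The related miR-101a-3p, with the same seed, was at 2508 ± 304 CPM in liver (SD, n = 10) and ranked 8th of 22 tissues, with the pancreas highest at 7136 CPM. Of the reads with this seed in liver, 76.1% were miR-101b-3p.

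miR-31a, best known from squamous and other epithelia, was also highest in liver. miR-31a-5p lay between 1373 and 2289 CPM, with a median of 1870, and every liver was above every other library, the highest of which had 1347 CPM. Its log2 difference was 4.54 ± 0.15 (adjusted p = 4.23e-72, edgeR), and the ovary had the highest mean of the others, 1156 ± 141 CPM (SD, n = 4). miR-31a-3p lay between 21.0 and 51.2 CPM against at most 19.8 CPM elsewhere (log2 difference 4.89 ± 0.16). With TMM scaling the 5p arm was higher than in 17 of the 21 tissues and the 3p arm than in 20. The name miR-72-5p, which had no entry among the rat RefSeq sequences, followed the same pattern, with 2.27 to 10 CPM in the livers and at most 3.84 CPM elsewhere. Of its 245 liver counts 231 (94.3%) were on sequences that begin with the whole of rat miR-31a-5p, and it amounted to 0.165% to 0.535% of miR-31a-5p in the single livers.

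Both arms of miR-193 and the 3p arm of miR-365 were higher in liver. miR-193-3p lay between 260 and 485 CPM in liver, with a median of 326 and a log2 difference of 4.45 ± 0.12 (adjusted p = 5.02e-85, edgeR). The pancreas came close, with 247 ± 92.6 CPM (SD, n = 10) and up to 429 CPM, and liver was higher than 20 of the 21 tissues. miR-365-3p, from the same gene, lay between 87.7 and 131.5 CPM, above every other library (at most 81.9 CPM, log2 difference 2.69 ± 0.10). After scaling it was higher than 20 tissues and was not called against the non-glandular stomach (log2 difference -0.11 ± 0.18). With TMM scaling it was higher than 18 tissues and lower than 1. miR-193-5p lay between 2.77 and 8.57 CPM against at most 2.58 CPM elsewhere, and after scaling it was higher than 20 of the 21 tissues. A precursor entry shared by mir-365-2 and a predicted locus, on few counts (1.19 to 2.85 CPM), was above every other library too, with a log2 difference of 4.73 ± 0.31.

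miR-3559, from the X chromosome, varied little across the livers. miR-3559-5p lay between 135 and 175 CPM, with a median of 157, and at or under 75.5 CPM in every other library. Its log2 difference was 3.97 ± 0.09 (adjusted p = 4.77e-93, edgeR) from the mean of the others and 1.49 ± 0.19 from the pancreas, the nearest tissue. miR-3559-3p lay between 21.5 and 41.1 CPM (log2 difference 3.63 ± 0.13) and overlapped with the pancreas, which reached 35.2 CPM.

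**Figure D2:**
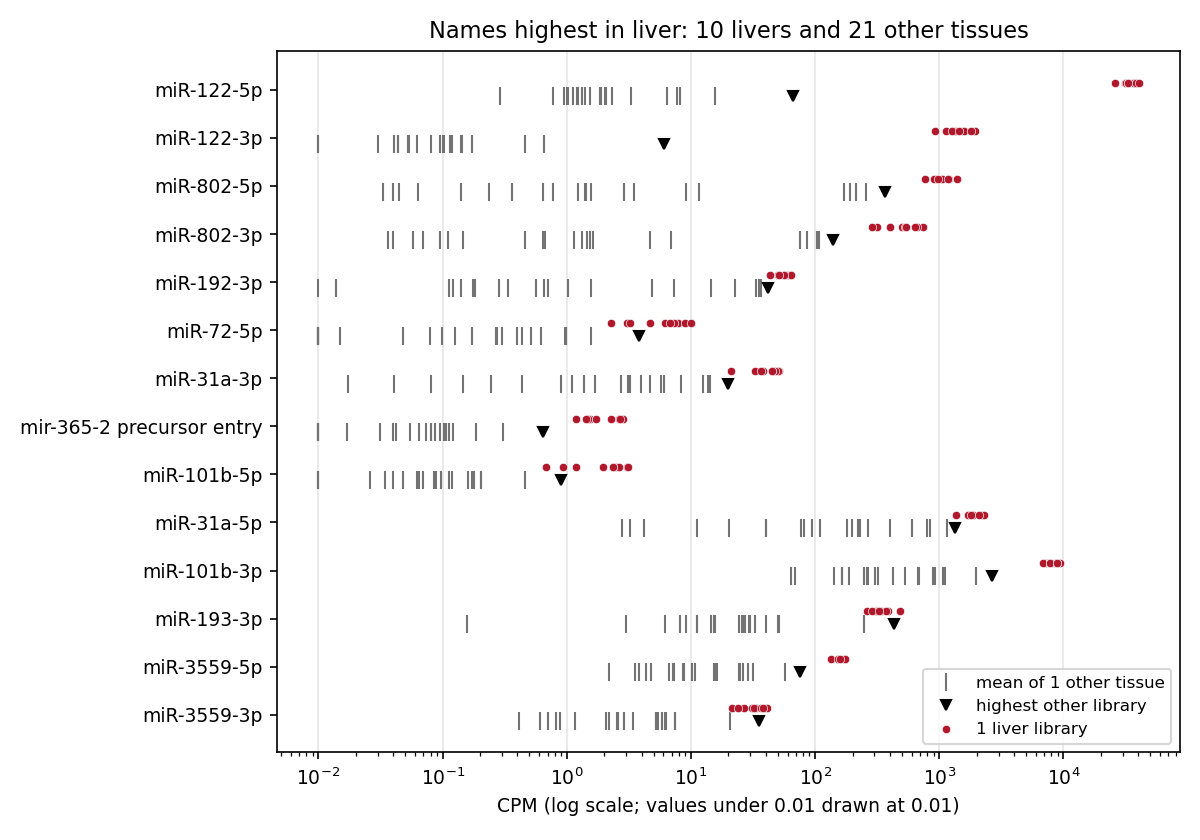
CPM (log axis) of the miR-122 arms and of the 12 other names with the largest liver difference among the 27 (2.06%) called higher with every liver above the mean of each other tissue. Red points are the 10 liver libraries, grey ticks the means of the 21 other tissues and black triangles the highest of 185 other libraries, which lies inside the range of the livers for miR-72-5p, miR-101b-5p, miR-193-3p and miR-3559-3p and below it for the other 10 names.

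Across all names, 30 were higher in liver than in each of the 21 other tissues (2.29% of those tested), and 11 of them also with TMM scaling (0.84%): both arms of miR-122, miR-802 and miR-101b, miR-30b-3p, miR-30d-3p, miR-3559-5p, miR-3968 and the mir-365-2 precursor entry. On the CPM scale 22 of the 30 had their highest mean in liver and 8 had a higher mean in another tissue, such as miR-872-5p (476 CPM in liver, 924 CPM in the testis), miR-335 (255 CPM, and 380 CPM in the cerebrum) and miR-3607-3p (28.4 CPM, and 40.5 CPM in the testis). Among the 11, miR-30b-3p and miR-30d-3p are the minor arms of a widespread family. miR-30d-3p lay between 138 and 171 CPM in liver and reached 157 CPM in the testis, whose mean was 136 ± 20.6 CPM (SD, n = 5), so that on the CPM scale the groups overlapped, whereas miR-30b-3p, 14.5 to 26.5 CPM, did not overlap with any other library (at most 12.3 CPM). miR-3968, 86.9% of whose liver reads were an 18-base sequence ending in CCA, had 46.9 to 168 CPM in liver and up to 122 CPM elsewhere. For 15 names (1.15%) every liver library was above every other library, and for 21 names (1.6%) the liver was the highest tissue of the rat in all 10 rats. miR-26b-5p was among the 15, with 5567 to 7142 CPM against at most 5387 CPM, but its log2 difference from the nearest tissue, the heart, was 0.46 ± 0.15.

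miR-192 and miR-194 were high in liver but higher in the gut. miR-192-5p lay between 121200.5 and 168642 CPM in liver, 14.8% of the counts on average, and the ileum had 220745 ± 21197 CPM (SD, n = 10). Its log2 difference from the mean of the 21 others was 5.62 ± 0.10 (adjusted p = 1.75e-114, edgeR), and liver was higher than 18 of them and lower than 2. The opposite arm, miR-192-3p, was highest in liver, 43.4 to 63.8 CPM against at most 41.8 CPM in any other library, with the duodenum next (36.7 ± 3.12 CPM, SD, n = 6), although after scaling it was higher than 18 tissues and was not called against the jejunum (log2 difference 0.02 ± 0.29). miR-194-5p was at 6663 ± 485 CPM (SD, n = 10, log2 difference 5.03 ± 0.10) and ranked 4th of 22 tissues, with the jejunum highest at 17260.2 CPM. miR-215, which shares the seed of miR-192-5p, was at 89.0 ± 69.1 CPM in liver (SD, n = 10) and at 386398 CPM in the jejunum.

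The most counted liver name was miR-22-3p, a miRNA known from heart growth and lipid metabolism. It lay between 280883 and 333941 CPM, with a median of 290409.6, and made up 29.6% of the liver counts. The heart alone had more, 331891 ± 16995 CPM (SD, n = 10), and liver and heart overlapped. The log2 difference of miR-22-3p from the mean of the others was 2.56 ± 0.10 (adjusted p = 2.59e-60, edgeR), and liver was higher than 19 tissues. miR-21-5p, known from injury and fibrosis, was highest in liver by its mean (38456 ± 6079 CPM, SD, n = 10), with the ovary next at 29269 ± 6132 CPM (SD, n = 4) and overlapping. Its log2 difference was 3.23 ± 0.09. miR-378a-3p, which lies in Ppargc1b and is tied to mitochondrial metabolism, was at 38179 ± 5649 CPM (log2 difference 2.71 ± 0.09), below the biceps femoris at 78437 CPM.

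Other abundant names did not set liver apart or did so weakly. miR-148a-3p, listed under a composite name with a predicted locus, lay between 45519 and 67014 CPM (log2 difference 3.70 ± 0.09), and the pancreas had 593509 ± 34026 CPM (SD, n = 10). miR-26a-5p, known to restrain growth of liver cells, was at 53612 ± 3589 CPM (SD, n = 10), and its log2 difference of 0.85 ± 0.10 fell to 0.23 with TMM scaling, where it was not called. miR-30a-5p (26049 CPM) and miR-27b-3p (20225 CPM) had log2 differences of 0.42 and 0.44 with upper quartile scaling and of -0.21 and -0.19 with TMM scaling, so that the sign depended on the scaling. miR-10a-5p, from a Hox cluster, was at 33014 CPM (log2 difference 1.42 ± 0.16) and let-7f-5p at 15264 CPM (1.18 ± 0.10), both called in all 3 analyses. miR-143-3p, the smooth muscle miRNA, was lower than the mean of the others (log2 difference -0.62 ± 0.15, adjusted p = 0.000238, edgeR) at 37752 CPM, against 840799 CPM in the non-glandular stomach. The call was lost when the 5 re-extracted livers alone were used.

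Summed by seed, the family of miR-22-3p held 29.6% of the liver counts, those of miR-192 and miR-215 14.8%, of miR-26 6.02%, of miR-148 and miR-152 5.74%, of miR-30 4.06%, of miR-378 3.93% and of miR-21 3.85%. Names with a single RefSeq seed covered 95.7% of the liver counts. Liver was the highest of 22 tissues for the families of miR-122-5p, miR-21-5p, miR-101, miR-28-3p, miR-142-5p and miR-31a-5p among the 25 with the most liver reads. The miR-101 family held 1.06 ± 0.107% of the liver reads (SD, n = 10) and 0.784% in the pancreas, the next tissue. Of the miR-192 and miR-215 family 99.9% of the reads in liver were miR-192-5p, and the jejunum had the highest share, 57.0%. A share compares reads, and not molecules, between names.

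The spread of reads over names was intermediate. The effective number of names, the exponential of the Shannon entropy, was 19.1 ± 1.23 in liver (SD, n = 10), between 17.3 and 21.6. It was lowest in whole blood (2.51 ± 0.406, SD, n = 10) and highest in cerebrum (37.1 ± 1.97, SD, n = 10). Liver was higher than 16 tissues and lower than 5, the 4 brain tissues and the testis. These permutation tests, with Benjamini-Hochberg adjustment over the 21, did not pair the tissues of a rat. Against cerebrum the adjusted permutation p was 3.79e-05, from the smallest p that 100000 resamples can give. The kidney cortex, at 17.7 ± 1.83, was nearest, with an adjusted permutation p of 0.04998, and that call was lost when miR-122 was left out or when libraries were thinned to 300000 counts.

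Of 36 hepatocyte-associated names 30 were tested, and 28 were higher in liver, 25 of them in all 3 analyses, and 0 lower, with a median log2 difference of 2.32 against -0.0019 over all names tested (31.6% of all names were called higher). Besides those above, miR-455-5p (39.3 ± 9.98 CPM, SD, n = 10, log2 difference 1.30) and miR-33-5p (19.2 ± 3.87 CPM, 1.44), which lies in Srebf2 and restrains cholesterol export, were among them. The other 2 were the arms of miR-483, which lies in the fetal growth gene Igf2: they had 0.535 CPM (3p) and 0.118 CPM (5p) in the adult liver and were not called. The lipid and cholesterol list had 24 names tested, 14 higher (8 in all 3 analyses) and 5 lower, with a median of 0.58. miR-223-3p (101 CPM, log2 difference 1.81) and both arms of miR-144 (137 CPM for the 5p and 119 CPM for the 3p arm) were higher, and miR-128-3p was lower (79.4 CPM, -1.74). Membership of both lists was set with liver in view, so that their direction is no independent evidence.

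Names of the other cell types of the liver were mixed. For comparison, 31.6% of all names tested were higher (17.8% in all 3 analyses) and 13.5% lower. Of 14 macrophage and leukocyte names tested 10 were higher in liver (7 in all 3 analyses) and 1 lower, with a median log2 difference of 1.17. miR-142-5p had its highest CPM in liver, 1899 ± 278 CPM (SD, n = 10, log2 difference 2.31), and miR-511-3p, which lies in the mannose receptor gene Mrc1 of macrophages, had 20.6 to 31.6 CPM (4.03 ± 0.17), close to the testis (33.2 CPM). miR-146a-5p was at 563 ± 130 CPM (1.79), and miR-146b-5p was the 1 lower name (107 CPM, -1.21). Both arms of miR-126a, the endothelial miRNA, were higher in all 3 analyses and second only to the heart: 13629.7 ± 1577 CPM for the 5p arm (2.13) and 3818 ± 333 CPM for the 3p arm (2.00). Of 10 stellate cell, fibroblast and smooth muscle names tested, 1 was higher, miR-199a-5p, and only with upper quartile scaling, and 3 were lower in all 3 analyses. They were miR-143-3p, miR-145-5p (254 CPM, -0.55) and miR-218a-5p (11.2 CPM, -2.25).

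Of 16 epithelial names tested 9 were higher (6 in all 3 analyses) and 2 lower. The counts of this and the next lists stand beside 31.6% higher (17.8% in all 3 analyses) and 13.5% lower among all names tested. The largest difference was that of miR-203b-3p (132 ± 42.3 CPM, SD, n = 10, log2 difference 5.28), followed by the arms of miR-31a and by miR-203a-3p (670 ± 187 CPM, 2.75), while the miR-200 family and miR-375 had far higher levels in gut or pancreas. miR-200b-3p was at 207 CPM against 4345 CPM in the ileum, miR-141-3p at 64.5 CPM against 17730 CPM in the pancreas, and miR-375-3p at 392 CPM against 37203 CPM in the pancreas. The erythroid list summed to 8733 to 15076 CPM in the livers against 865496 CPM in whole blood, 6 of its 8 names being higher than the mean of the tissues. These included miR-451-5p (863 ± 205 CPM, SD, n = 10, log2 difference 3.25), second to whole blood at 5052 CPM. The part of residual blood in these values was not tested. Of 17 names tested from the miR-17-92 and miR-106b-25 clusters 13 were higher (7 in all 3 analyses) and 0 lower, with miR-92a-3p at 12229.6 ± 1718 CPM (2.37). Of 18 let-7 names 8 were higher and 7 lower, let-7f-5p, let-7a-5p (5717 CPM, 1.00) and let-7g-5p (4419 CPM, 0.88) among the former and let-7c-5p (2718 CPM, -0.46) and let-7b-5p (645 CPM, -0.74) among the latter. These paralogs differ at few bases, and the division of reads between them was not tested.

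**Figure D3:**
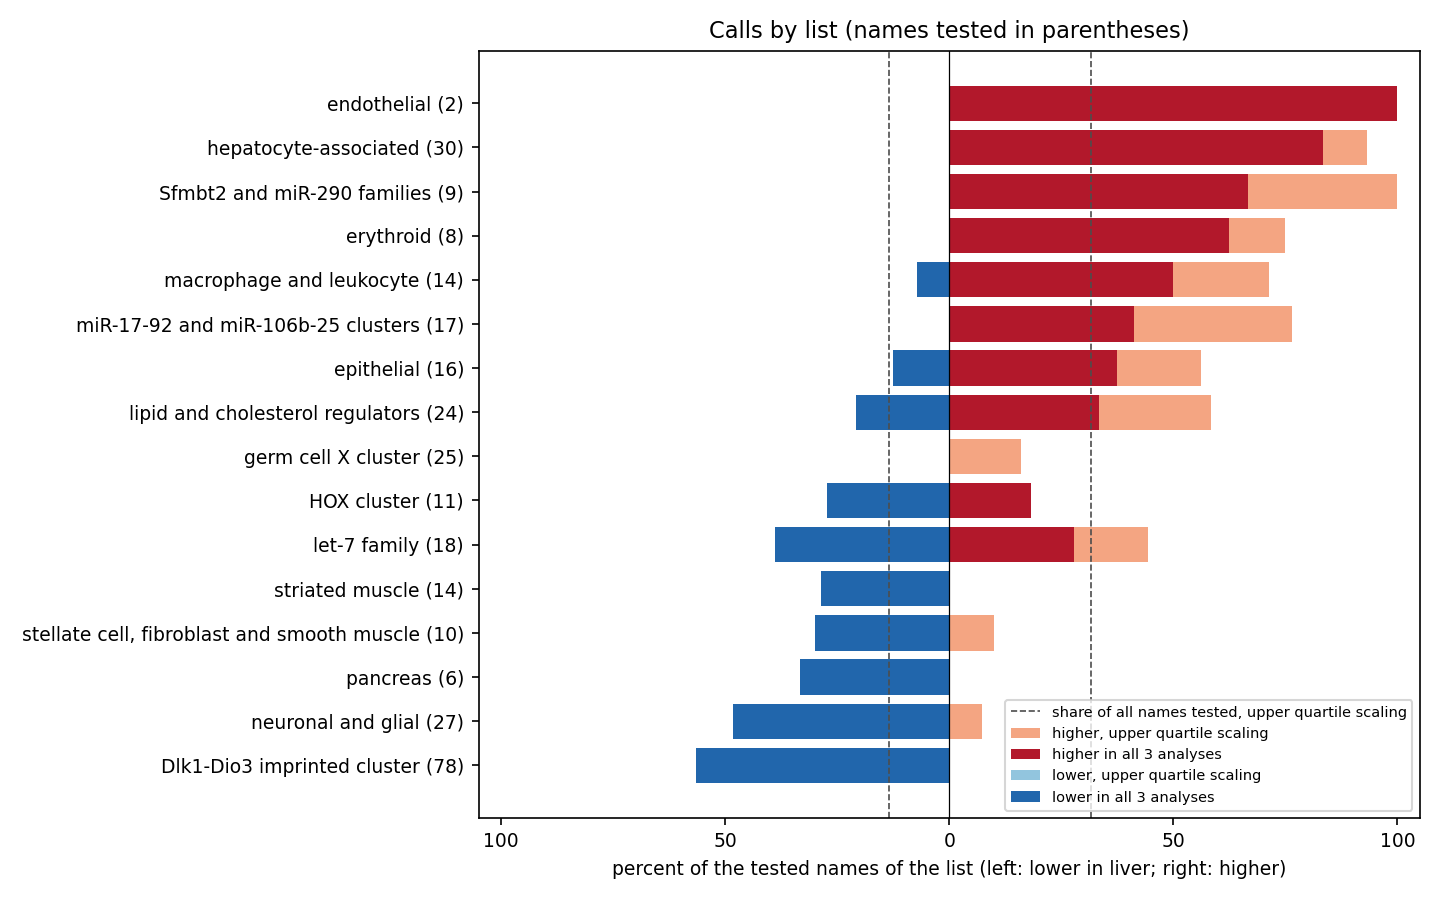
Percent of the tested names of 16 lists that were called higher (right) or lower (left) in liver than in the mean of 21 other tissues, with dashed lines at the 31.6% and 13.5% of all 1309 names. Dark bars are calls shared by all 3 analyses, and 44 of 78 names of the Dlk1-Dio3 cluster were lower against 0 higher.

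The imprinted Dlk1-Dio3 cluster, whose miRNAs are expressed from the maternal chromosome and are abundant in brain, was the largest group of names low in liver. Of its 91 names 78 were tested, and 44 were lower in all 3 analyses and 0 higher (13.5% of all names were called lower), with a median log2 difference of -4.13. Of the 91 names 31 had no count in the 10 livers and 49 had at most 3. The whole cluster summed to 61.2 to 239 CPM in the livers, with a median of 148, and to 233277 CPM in the hippocampus. Liver ranked above whole blood alone, at 31.9 CPM. miR-127-3p, which lies antisense to Rtl1, made up most of the liver signal, with 36.7 to 149.7 CPM against 169188 CPM in the hippocampus (log2 difference -4.46 ± 0.30). miR-411-5p (17.5 CPM, -4.45) and miR-434-3p (14.4 CPM, -4.51) followed. miR-541-5p lay between 0 and 3.85 CPM in the livers and at 2103 ± 454 CPM in the adrenal (SD, n = 9), with a log2 difference of -5.16 ± 0.25 (adjusted p = 6.26e-48, edgeR). miR-382-5p, miR-134-5p and miR-369-3p had at most 0.680, 0.539 and 0.581 CPM in any liver, against 423 CPM in the brainstem, 338 CPM in the adrenal and 313 CPM in the brainstem.

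miR-149-5p, which lies outside this cluster, was the 1 name of all tested (0.0764%) that was lower in liver than in each of the 21 tissues under both scalings. It lay between 0.480 and 3.84 CPM in the livers, with a median of 1.64, and at 1300 ± 257 CPM in the brainstem (SD, n = 10). Its log2 difference was -5.58 ± 0.31 (adjusted p = 7.26e-41, edgeR). The lowest of the 185 other libraries had 0.145 CPM, so that single libraries overlapped with the livers. For 0 of the names tested was every liver below every other library. In CPM whole blood had the lowest mean of the other tissues, 3.06 CPM, whereas in the fit the testis was nearest to liver (log2 difference -1.42). In all, 6 names were lower than in each tissue with upper quartile scaling (0.458%): miR-149-5p, miR-325-3p and, from the Dlk1-Dio3 region, miR-409a-5p, miR-485-3p, miR-541-5p and miR-758-3p. The other five had whole blood means between 0.0201 and 0.620 CPM, and 4 of them had at most 2 counts in all livers. In CPM the remaining name, miR-541-5p, was higher in liver (2.49) than in whole blood (0.620), and with TMM scaling it was lower than in 20 tissues. miR-708-5p, within Tenm4, and miR-504, within Fgf13, both highest in the hippocampus (203 and 381 CPM), had at most 0.581 and 0.718 CPM in any liver. miR-10b-5p, from the Hoxd cluster, was at 654 ± 129 CPM in liver (SD, n = 10) and at 335318 CPM in the adrenal (log2 difference -4.24 ± 0.26), in contrast to miR-10a-5p.

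Names that liver lacked were counted as those with at most 3 counts in the 10 livers together, of 40725276 in all, and with a mean of at least 10 CPM in another tissue. There were 137 of them among the 767 names that reached 10 CPM elsewhere (17.9%), of which 97 were single or composite mature names and 39 predicted miRNAs, and 68 had no count at all. A count of 0 allows a level of up to 0.0737 CPM, for counting error only. The highest tissue was the testis for 54 of them, the brainstem for 29, the hippocampus for 19 and the cerebrum for 18, and no more than 3 names had their highest level in any other tissue.

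miR-202-5p, a gonadal miRNA, was at 4369 ± 806 CPM in the testis (SD, n = 5) and 662 CPM in the ovary, with 3 counts in the livers, a ratio of testis to liver of 59303 (95% counting interval 20292 to 287566). Predicted names aside, miR-7210-5p (724 CPM) and miR-7214-5p (661 CPM) were found in the testis and had no liver count, which puts the liver at least 9830-fold and 8979-fold lower. miR-463-3p (548 CPM in the testis) and miR-880-3p (353 CPM), of an X-linked cluster of germ cell miRNAs, had none either, at least 7433-fold and 4799-fold lower in liver. miR-883-3p and miR-3580-3p, from the same stretch of the X chromosome, had 2 and 3 liver counts, all in rat 11. miR-216a-3p of the pancreas (500 ± 62.4 CPM, SD, n = 10) had 1 liver count, and miR-208a-3p, from the cardiac myosin gene Myh6 (463 CPM in the heart), had 3. miR-137-3p, a neuronal miRNA, was at 447 ± 46.0 CPM in the hippocampus (SD, n = 7) and had 3 liver counts, a ratio of 6071 (95% counting interval 2077 to 29440). miR-758-3p (730 CPM in the brainstem) and miR-409a-5p (183 CPM in the cerebrum) had 2 counts each, while miR-325-3p (104 CPM in the brainstem) and miR-485-3p (92.4 CPM) had none.

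Of the lists of other organs and families, those of nerve cells, pancreas and striated muscle had more names lower than higher in liver. Those of germ cells and of the Sfmbt2 and miR-290 families had more names higher than lower. With upper quartile scaling 31.6% of all names tested were higher and 13.5% lower, so that more higher than lower names was also the state of all names. Of 27 neuronal and glial names tested 13 were lower in all 3 analyses and 2 were higher with upper quartile scaling, miR-219a-5p (4.93 CPM) and miR-219a-1-3p (3.50 CPM), neither in all 3. The list summed to 179 to 275 CPM in the livers and to 111509 CPM in the cerebrum. miR-9a-5p was at 17.8 CPM in liver against 42389 CPM in the hippocampus (log2 difference -3.03). The pancreas list summed to at most 2.93 CPM in any liver, against 12926 CPM in the pancreas. Of 11 Hox cluster names the 2 arms of miR-10a were higher and miR-10b-5p, miR-196b-5p and miR-196a-5p were lower, and the list summed to 33686 CPM in liver. The striated muscle list, with 4 of 14 names lower and 0 higher, summed to 24.6 to 239 CPM in 9 livers and to 1267 CPM in rat 3, whose miR-133a-3p was at 1242 CPM. Without that liver 6 of the 14 were lower and 0 higher. Of 25 germ cell names tested 4 were higher with upper quartile scaling, a smaller share than that of all names, and 0 in all 3 analyses. Their median log2 difference was 0.04. The list summed to 4.08 to 7.56 CPM in 9 livers and to 34.6 CPM in rat 11, a female, with miR-743b-3p at 8.08 CPM, against 47049.5 CPM in the testis, and 7 of the 21 tissues had a higher sum than liver. Of 20 names of the Sfmbt2 intron and of the embryonic miR-290 family 9 were tested, and these 9 were higher (6 in all 3 analyses). The part of the count filter in this result was not tested. Of the 20 names 6 had no liver count and 9 had at most 3. All were scarce, 12.7 to 43.6 CPM together, led by miR-466c-5p (4.78 CPM, log2 difference 3.15 ± 0.26) and again highest in rat 11. Their sum was higher in 3 other tissues, with a mean of 87.6 CPM in the testis against 21.2 CPM in liver.

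Between the sexes, 2 of 462 names tested in the 10 livers differed (edgeR, adjusted p below 0.05), 1 in each direction (0.216%), and 37 had an unadjusted p below 0.05 (8.01%). miR-190b-5p was higher in females, with 44.3 to 96.6 CPM in the 5 females and 11.8 to 24.7 CPM in the 5 males (log2 difference 2.01 ± 0.32, adjusted p = 0.0218, edgeR). miR-200b-3p, an epithelial miRNA, was lower in females, with 91.2 to 153 CPM against 224 to 335 CPM in males (log2 difference -1.43 ± 0.24, adjusted p = 0.0218, edgeR). Neither pair of groups overlapped. With the extraction as a term both stayed past the threshold (adjusted p = 0.0461, edgeR), although 4 of the 5 re-extracted livers were female. miR-335, from the imprinted gene Mest, was at 157 to 733 CPM in females and at 89.9 to 166 CPM in males, which overlapped (log2 difference 1.47 ± 0.37, adjusted p = 0.206, edgeR). The composite and precursor entries of the same hairpin gave 1.62 and 1.67 (adjusted p = 0.0949 for both, edgeR). DESeq2 called 20 names, and leaving out 1 liver gave 0 to 2 calls. There were 0 calls without rat 2, 3, 4, 9 or 10, and 1 call without rat 5, 6, 7 or 11.

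**Figure D4:**
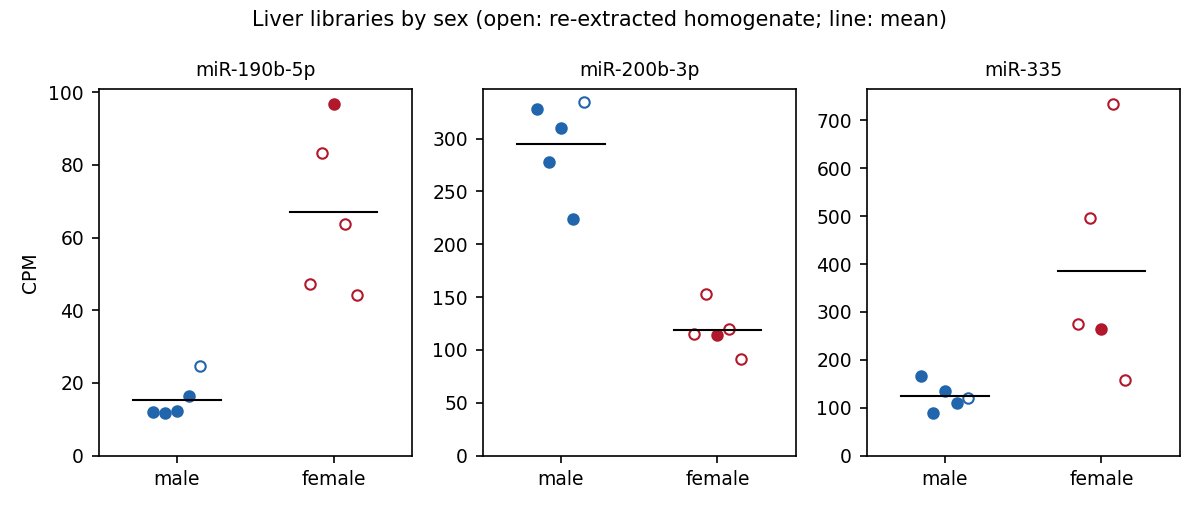
CPM of miR-190b-5p, miR-200b-3p and miR-335 in the 10 livers, 5 of each sex, 1 point per rat with the mean as a line and open points for re-extracted homogenate. The sexes do not overlap for miR-190b-5p (females higher) and miR-200b-3p (males higher) and overlap for miR-335.

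The arm ratio, log2 of 5p over 3p counts, was compared for 104 hairpins by limma, and it was shifted toward the 5p arm in liver for 23 (22.1%) and toward the 3p arm for 25 (24.0%). The 5 largest fitted shifts called were those of miR-203a, miR-92b, miR-497, miR-204 and miR-181d. That of miR-203a (-1.87 ± 0.27) rested on 26 counts of its minor arm in all livers and that of miR-497 (1.58 ± 0.32) on 18. The minor arms of miR-92b and miR-181d had no liver count and that of miR-204 had 3, so that their liver ratios were set by the pseudocount and the depth and no size is given. In all, 5 of the 48 called hairpins had at most 3 such counts. When both arms had to reach a mean of 10 counts in every tissue, 20 hairpins remained, of which 9 (45.0%) moved toward 5p and 4 (20%) toward 3p. The largest of these was miR-21, at 7.72 ± 0.27 in liver (SD, n = 10) against a mean of 6.56 in the others, a difference of 1.17 ± 0.10 (adjusted p = 2.90e-23, limma), and no other tissue had a higher ratio. miR-872 (difference 1.01 ± 0.11), miR-423 (0.85 ± 0.08) and miR-151 (0.78 ± 0.07) also moved toward 5p, and miR-30d moved toward 3p (-0.78 ± 0.08). For miR-151 both arms were nearly equal in liver, 1914 CPM for the 5p and 2191 CPM for the 3p arm.

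The isomiR table, which counts each sequence of a name, was read for liver, whole kidney, jejunum and pancreas, 10 libraries each, and the isomiRs of the other tissues were not analysed here. The 3′ ends of liver miRNAs carried more added uridines. Over 51 names with at least 200 counts in every library, the median share of reads that end in 1 or more U not present in the RefSeq hairpin was 6.97 ± 0.45% in liver (SD, n = 10), between 6.14% and 7.64%. It was 4.00 ± 0.326% in jejunum, 3.25 ± 0.246% in pancreas and 3.22 ± 0.254% in kidney (SD, n = 10 each), and the highest library of these 30 had 4.55%, so that the livers stood apart. The mean of the livers was the highest of the 4 tissues for 40 of the 51 names (78.4%), and for 18 (35.3%) every liver was above every other library. For added A the liver mean was highest for 20 of 51 (39.2%). This pattern was chosen after its values were seen and is given without a test. The re-extracted livers had 7.29 ± 0.311% and the others 6.65 ± 0.316% (SD, n = 5 each), both above all libraries of the other tissues.

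Examples of longer forms are given with T for U and the seed in capitals. The first of each pair is the RefSeq form and the second a form longer by T that was more frequent in liver.
miR-192-5p: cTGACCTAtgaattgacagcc
miR-192-5p with T: cTGACCTAtgaattgacagcct
miR-26a-5p: tTCAAGTAatccaggataggct
miR-26a-5p with T: tTCAAGTAatccaggataggctt
The T form of miR-192-5p was 7.91 ± 0.572% of that name's reads in liver (SD, n = 10), 6.20% in jejunum, 3.76% in pancreas and 2.79% in kidney. All U-tailed forms of miR-192-5p together were 19.0 ± 1.02% in liver against 10.6% in jejunum, 7.55% in pancreas and 5.02% in kidney. For miR-26a-5p they were 15 ± 1.31% in liver and at most 8.44% in the means of the others, and for miR-182 22.2 ± 1.94% against at most 13.2%. miR-101b-3p had 23.9 ± 1.68% in liver and 19.3% in pancreas, and single libraries overlapped. miR-22-3p, the most counted name, had next to none in any tissue (0.0414% in liver). miR-21-5p differed in another way: its most counted liver form was longer than the RefSeq form by CT.
miR-21-5p with CT: tAGCTTATcagactgatgttgact
It was 48.8 ± 2.76% of the miR-21-5p reads in liver (SD, n = 10), 28.9% in jejunum, 23.7% in kidney and 13.8% in pancreas, and the RefSeq form was 22.8% in liver and 34.9% to 39.4% in the others. The lowest liver had 44.7% and the highest other library 33.2%, so that liver did not overlap with the other 3 tissues.

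**Figure D5:**
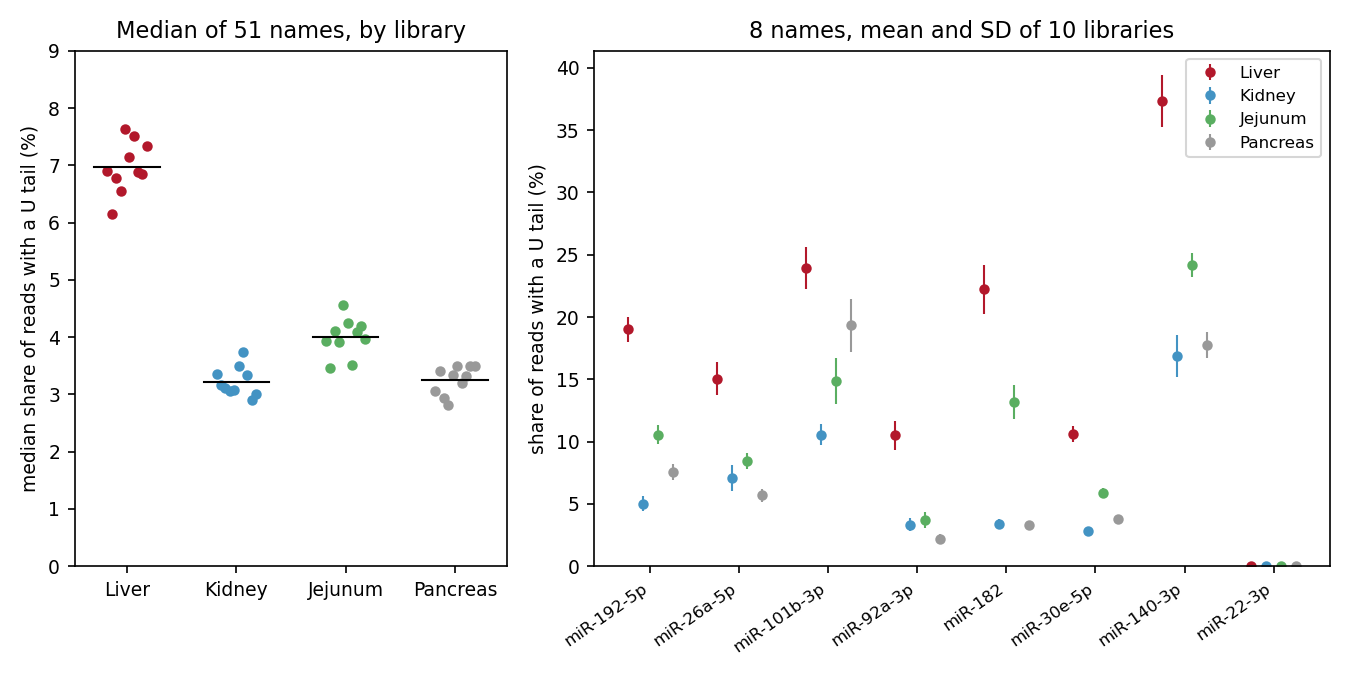
Share of reads with 1 or more added U at the 3′ end, in percent: left, the median of 51 names in each of 10 libraries of 4 tissues, with the mean as a line; right, mean and SD of 10 libraries for 8 names. All 10 livers (6.14% to 7.64%) lie above all 30 other libraries (at most 4.55%), and miR-22-3p is near 0 in every tissue.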

How the data were processed

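Small RNA of rat organs was sequenced by the authors, who trimmed adaptors (cutadapt 1.4.1 in the submitters' processing notes), counted reads on miRBase precursors with miRDeep2, predicted further miRNAs on the rn5 genome and deposited counts, the number of reads for each miRNA name and each isomiR sequence in every run, not normalized. The table has 7534 names, mature, composite, predicted and precursor. According to the paper, sequences without a match among rat miRNAs were searched for among those of mouse, then human and then C. elegans. A name can therefore be that of another species. Runs were summed per library, 14 runs that repeat a flow cell lane being set aside, and CPM is the count over the library total. Libraries were grouped by tissue label.

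The 10 livers were compared with the mean of 21 other tissues, and with each of them, with the quasi-likelihood test of edgeR 4.0.16 (R 4.3.3) after filterByExpr by tissue and upper quartile scaling, and called at a Benjamini-Hochberg adjusted p below 0.05. Arm ratios (pseudocount 0.5, at least 50 counts on both arms together in every liver and in 75% of all libraries) used limma 3.58.1, and effective numbers two-sided permutation tests with 100000 resamples, exact where a group was under 10. DESeq2 1.42.0, TMM scaling, no filter, leaving out libraries, another weighting of organs and the rat as a block were alternatives. Names in the text were the 12 largest rises with every liver above the mean of each other tissue, the 10 highest levels, the 10 largest falls among names at 100 CPM or more elsewhere, the 10 highest lacking names, up to 4 names for each list, the 5 smallest p for sex and the 5 largest arm changes. The miR-122 arms, the composite miR-148a-3p, miR-880-3p, the names higher or lower than each tissue, further members of the listed families and the isomiR examples were added after their values were seen. The members, lists and tests were chosen with earlier results of these data known. Python 3.11.15 with pandas 2.3.3, numpy 2.4.6 and scipy 1.17.1 did the rest, and figures were drawn with matplotlib 3.10.9.

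Tissues with the same number come from the same rat. After removal of tissue means, profiles of different tissues of a rat had a median correlation of 0.0130 (1808 pairs), and those of different rats one of -0.0078 (16293 pairs). No 2 livers agreed within sampling noise (chi-square per degree of freedom 56.0 to 318 over 45 pairs). On simulated counts, the liver fit recovered 98.7% of 154 names changed by a log2 of 2, with 4 calls among the unchanged names of 974. The simulated tissues of that fit shared 1 pooled profile and a dispersion of 0.2, with rises and falls balanced and in liver only. They therefore do not test the scaling between unlike tissues, on which the real calls depended. The fit of the sexes recovered 94.0% of 183 with 15 such calls among 439. The arm ratio fit recovered 92.3% of 26 stems changed by 1.5, with 6 such calls among 104, none with the filter on the minor arm. IsomiR counts of 86 columns were read, and they summed to the name counts for all 4587 names compared. RefSeq sequences (GRCr8) were matched by name for 522 of 672 single names tested. Intervals and limits reflect counting error alone, as PCR copies of 1 molecule could not be recognised.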

Additional observations from a re-analysis of the deposited data

Results flagged for a closer look

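Among 63 groups of liver values tested, 6 had 1 library whose distance from the nearest of the others was a large part of the range, where chance gives about 1 in 20 groups. The miR-22-3p level of rat 4 was 333941 CPM, with 305620 CPM next. The miR-26a-5p level of rat 9 was 62158 CPM, with 54844 CPM next. The miR-382-5p level of rat 3 was 0.680 CPM, with 0.244 CPM next, on few counts. The summed striated muscle names of rat 3 reached 1267 CPM, with 239 CPM next. In rat 11, the summed germ cell X cluster names reached 34.6 CPM, with 7.56 CPM next, and the summed names of the Sfmbt2 and miR-290 families 43.6 CPM, with 25.3 CPM next. The rat 3 and rat 11 sums are the ones given beside their lists above.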

How the results depend on the processing

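Of 59 names examined singly and called against the mean of the others, 53 were called in the same direction under all 22 alternatives. These names were picked mostly for large differences or high levels in the same data, so their stability does not stand for all names. Over all names tested, 233 of the 413 higher calls and all 177 lower calls were shared by upper quartile scaling, TMM scaling and DESeq2. The names higher in liver, 413, were 264 with TMM scaling and 846 without a filter, and the 177 lower names were 350 with DESeq2. Higher than each of 21 tissues were 30 names, and 11 with TMM scaling, 19 without a filter and 16 with the livers that were not re-extracted. Lower than each were 6 names, and 2 without a filter, 14 without predicted and precursor names and 3 with either set of livers alone. With a replicate block for the rat, 404 names were higher, 178 lower, 30 higher than each tissue and 6 lower than each, and no count moved by over 1.5 times. Leaving out 1 liver gave 392 to 409 higher and 168 to 180 lower names. The 2 sex calls were 20 with DESeq2 and 41 without a filter, and leaving out 1 liver gave 0 to 2, with 0 without rat 2, 3, 4, 9 or 10. No block can be fitted for sex, in which the rats are nested. Arm calls of 23 and 25 became 9 and 4 under the filter on the minor arm, which was chosen after seeing the data and left fewer hairpins. The 137 lacking names were 206 at a limit of 10 counts and 68 at 0. miR-30a-5p (-0.21) and miR-27b-3p (-0.19) changed sign with TMM scaling. miR-3580-3p, with 3 liver counts in rat 11, gave 0.68 in the fit, -0.35 with DESeq2, -1.51 with the livers not re-extracted and between -1.51 (without rat 11) and 0.85 when 1 liver was left out. The causes were not tested. Shallow testis libraries (from 376401 counts) limit low names there.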
